A study of Oryza sativa with 12 samples.

Results

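Heat shock proteins and heat shock factors were described across leaves and roots of rice parents and their hybrid. The members were the probe sets, the groups of short oligonucleotides that read out a transcript on an array, whose gene symbol or synonym began with HSP, HSF, HSC or CLPB followed by a number or by a class letter and a number. The rule found 64 of 57258 rice probe sets, which belonged to 44 of the 17905 genes that the probe annotation names. They were 26 probe sets of 19 small heat shock proteins, 11 probe sets of 6 large chaperones and 27 probe sets of 19 heat shock factors. The 2 probe sets of ARD1, a dioxygenase whose record carries such a synonym, were left out.

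Small heat shock proteins hold unfolding proteins in a state from which they can be refolded, and they need no ATP for it. CLPB proteins, also called HSP100, pull proteins out of aggregates, and HSP90 proteins, named HSP81 in rice, help regulatory proteins such as kinases and receptors to reach their active form. Heat shock factors bind the promoters of these genes: class A factors activate them, many class B factors lack the activation motif and repress them, and class C forms a plant group of its own. Beside heat, members of the family are known to respond to drought, salt, oxidative stress and development in plants.

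The study hybridised 12 Affymetrix rice arrays with RNA from the cultivars C bao and Jamaica and from the F1 hybrid of their cross, and its title ties hybrid weakness, the poor growth of a hybrid of vigorous parents, to an enhanced stress response. Each of the 6 groups (C bao leaf, Jamaica leaf, F1 leaf, C bao root, Jamaica root and F1 root) held 2 arrays. Leaves came from plants 4 weeks old and roots from plants 7 days old, so tissue and age cannot be told apart. No treatment was given in the labels, and growth conditions, the direction of the cross and the origin of the replicates are not stated in the labels, so a p-value measures the spread between arrays, which may be technical. In bulk samples, fewer cells of a type and less RNA per cell cannot be told apart.

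Signals are MAS5 values, which the authors had scaled so that the trimmed mean of every array lay near 500, and 2 arrays per group limit the precision of every estimate. Differences are on the scale log2(signal + 16), which understates changes of dim probe sets, and carry the standard error (SE) of limma. A probe set was called when its p from limma, adjusted over all 42974 tested probe sets by Benjamini and Hochberg, was under 0.05. Of the members, 59 were bright enough to be tested, meaning that at least 1 group mean lay above the mean 40th percentile of the arrays (a signal of 32.2). The other 5 probe sets (HSP16.0, another probe set of HSP18.6, both of HSP21.9 and 1 of HSFB2B) had signals between 0.9 and 52.7 on all 12 arrays. A level was never compared between different probe sets, since each has its own affinity. Probe sets ending in _s_at or _x_at can also read related transcripts, so signals of close family members may be shared. Where a gene has several probe sets they are numbered in the order of first mention.

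The F1 leaf arrays stood apart from each other. Their correlation over all tested probe sets was 0.924, against 0.944 to 0.968 in the other groups, and 20 of the 59 tested members (33.9%) lay over 2-fold apart on them, against 22.6% of all tested probe sets. In the other 5 groups 3 to 8 members did so (5.08% to 13.6%), against 10.9% to 18.8% of all tested probe sets. Genes of the leaf list (6 genes such as RBCS and CAB, the small subunit of Rubisco and light-harvesting proteins) summed to 87032 to 190286 in leaves and 3610 to 17105 in roots. Genes of the root list (5 genes for silicon and nitrate uptake) summed to 19315 to 51476 in roots and 461 to 1128 in leaves, with both F1 roots (19315 and 23788) below the 4 parental roots.

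**Figure D1:**
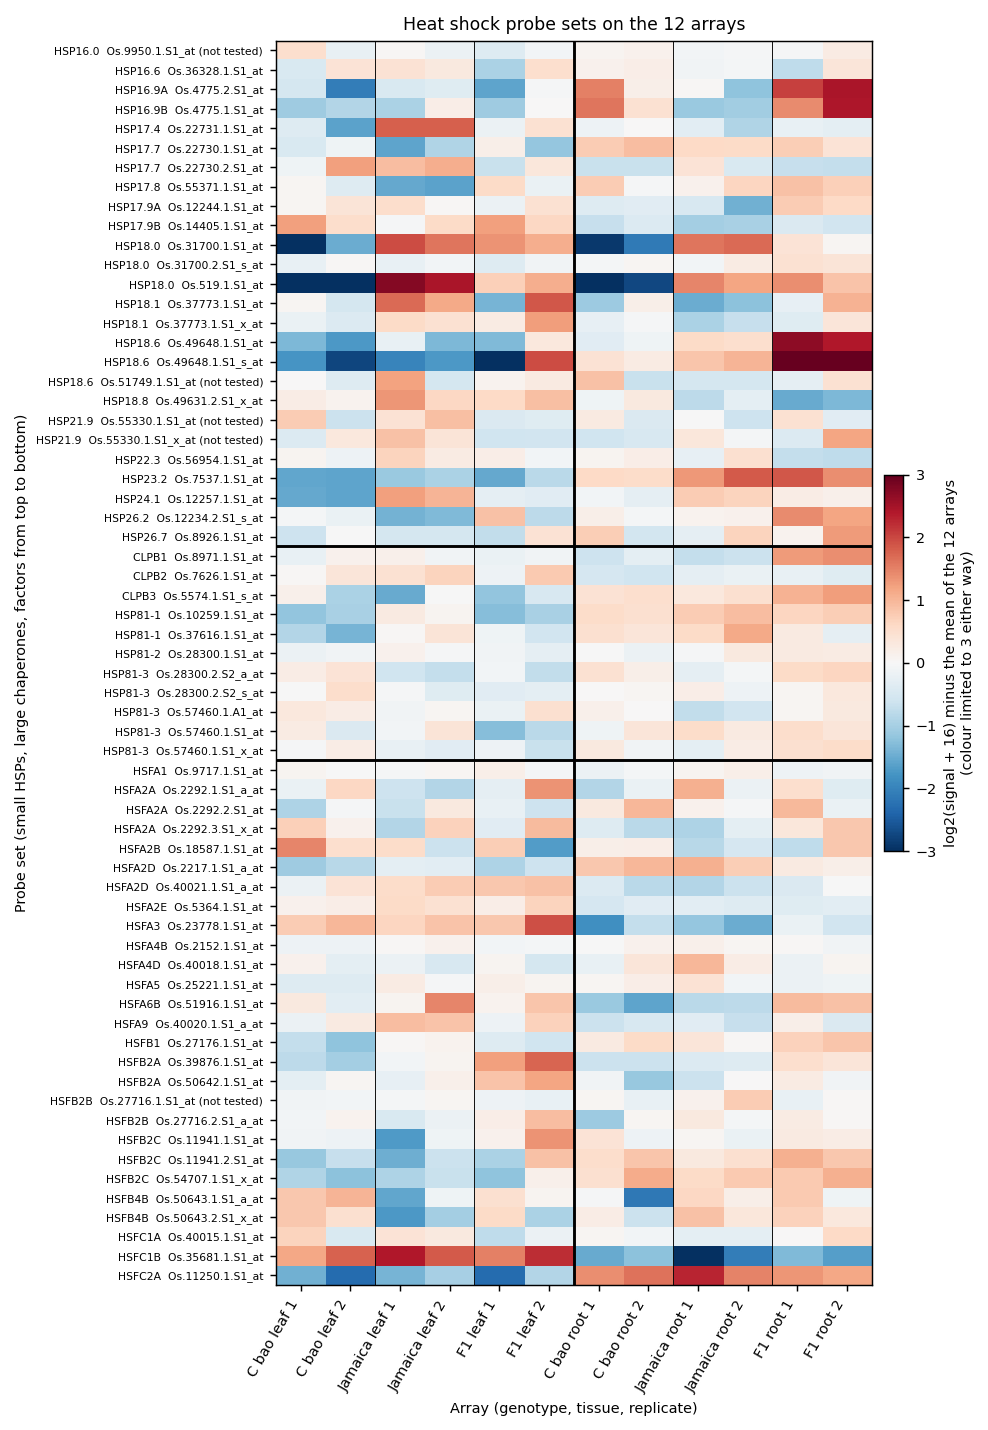
The 64 heat shock probe sets (rows, grouped into small HSPs, large chaperones and factors) on the 12 arrays (columns). Colour is log2(signal + 16) minus the probe set's mean over the 12 arrays, limited to 3 either way. HSP18.6 is highest in both F1 roots at its 2 tested probe sets, HSP18.0 is lowest in C bao at 2 of its 3 probe sets, and HSFC1B and HSFC2A separate leaves from roots in opposite directions.

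In F1 roots, 7 of the 59 tested heat shock probe sets differed from the mean of both parents (mid-parent), against 5.06% of all tested probe sets. HSP18.6, HSP17.9A, CLPB1 and the factor HSFA6B were higher by 1.34 to 2.39 on the log2 scale. HSP18.0 was also called higher, at a probe set that had passed the filter only through the Jamaica and F1 groups. HSP18.8 and a probe set of the HSFA2D record were lower. The 5 higher calls compare with 3.37% of all tested probe sets and the 2 lower calls with 1.69%. Counted by gene, with the brightest probe set for each, 3 of 42 tested genes were higher and 2 lower. An unadjusted p under 0.05 was reached by 20 of the 59, against 18.4% of all tested probe sets. Against C bao alone 7 of 59 were called (5.58% of all tested) and against Jamaica alone 4 of 59 (4.81%), all 4 higher in F1: CLPB1, HSP16.9A, HSP16.9B and HSP17.9A. These comparisons share the F1 arrays. The 7 include 2 probe sets of HSP18.0 that had passed the filter only through the Jamaica and F1 groups. The probe set of HSP16.9B had passed it only through C bao and F1 roots.

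HSP18.6, a small heat shock protein, gave 990.3 and 815 on the F1 root arrays at its probe set ending S1_at. In the roots of the parents it gave 108 and 128 (C bao) and 218 and 206 (Jamaica). Both F1 roots lay above all 4 parental roots and above all 6 leaves, and the difference from mid-parent was 2.39 (SE 0.454, adjusted p = 0.0124). The probe set of the gene ending S1_s_at gave 1642 and 2123 in F1 roots against 224 and 193 (C bao) and 296 and 339.5 (Jamaica) in roots. Its groups did not overlap in roots either, but the limma test gave 2.79 (SE 0.999, adjusted p = 0.161). The F1 leaf pair of this probe set, at 4.8 and 668, enters the same estimate of spread, and without both F1 leaf arrays the adjusted p was 0.000446.

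HSP17.9A, a cytosolic class I small heat shock protein, gave 1095 and 989.7 in F1 roots. Its parental roots gave 492 and 502 (C bao) and 458 and 228 (Jamaica), so that the groups did not overlap. The difference from mid-parent was 1.34 (SE 0.287, adjusted p = 0.023), a call lost under 5 of 21 alternatives. The F1 root values lay above all 6 leaf values, which ran from 569 to 937. HSP18.0 gave 492 and 337 in F1 roots at its first probe set, against 7.7 and 13.1 (C bao) and 517 and 425 (Jamaica) in roots. The probe set had passed the filter only through the Jamaica and F1 groups, and the C bao roots lay below the filter level. No size is therefore given for the call, which rests on the low C bao level. The F1 arrays overlapped those of Jamaica and were -0.20 from them. At the second probe set of the gene, F1 roots gave 201 and 156, below the 485 and 514 of Jamaica roots. The other small heat shock protein call was HSP18.8, which gave 2851 and 3160.4 in F1 roots, 7405 and 9999 in C bao roots and 4730.1 and 6607 in Jamaica roots. Both F1 roots lay below all 10 other arrays, and the difference was -1.20 (SE 0.217, adjusted p = 0.00943).

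HSP16.9A and HSP16.9B, cytosolic class I proteins whose genes are direct neighbours in RefSeq's annotation of assembly ASM3414082v1, were the next largest differences without a call. HSP16.9A gave 369.7 and 493 in F1 roots against 250.4 and 88.6 (C bao) and 79.7 and 24.4 (Jamaica) in roots, a difference of 2.12 (SE 0.612, adjusted p = 0.0809). HSP16.9B gave 85.5 and 189 against 98.6 and 36 (C bao) and 1.6 and 2.3 (Jamaica), without a call. Its Jamaica roots lay below the filter level, and the probe set had passed it only through C bao and F1 roots, so no size is given. HSP16.9A separated F1 from all parental roots, whereas the F1 range of HSP16.9B included a C bao array. Against Jamaica alone HSP16.9A was called at 2.83 (SE 0.707, adjusted p = 0.0476). HSP16.9B was called there too, with the limit just given, so no size is given for that call either. Their other neighbours in the same stretch, HSP17.9B and HSP16.6, had differences of 0.27 (SE 0.248, adjusted p = 0.621) and -0.24 (SE 0.489, adjusted p = 0.853). HSP26.2, named after its values were seen, gave 1355 and 1151 in F1 roots against 478 to 569.9 on the 4 parental roots, a difference of 1.21 (SE 0.359, adjusted p = 0.0905).

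Among the large chaperones, CLPB1 (HSP101), the cytosolic disaggregase of rice, gave 219 and 238 in F1 roots. It gave 46.9 and 62.8 in C bao roots and 42.7 and 45.7 in Jamaica roots, and 66.8 to 91.7 on the 6 leaf arrays. Both F1 roots lay above all other arrays, by 1.91 over mid-parent (SE 0.299, adjusted p = 0.00415). CLPB1 was also the only member called beyond both parents in roots, at 1.80 over C bao, the nearer parent (adjusted p = 0.0368 from limma), that is 1 of 59 members against 1.08% of all tested probe sets. That call was lost under 13 of 21 alternatives, with adjusted p up to 0.301. CLPB3, the mitochondrial form, gave 207 and 243 in F1 roots against 119 to 139 on the 4 parental roots, without overlap but also without a call (0.71, SE 0.464, adjusted p = 0.466). CLPB2, the chloroplast form, differed by 0.10 (SE 0.24, adjusted p = 0.879). No HSP81 probe set was called in F1 roots: their 8 differences ran from -0.65 at a probe set of HSP81-1 to 0.53 at a probe set of HSP81-3.

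Among the factors, HSFA6B, which in Arabidopsis is known as an abscisic acid responsive class A factor, gave 509.6 and 483 in F1 roots. Its parental roots gave 110.2 and 75.3 (C bao) and 139 and 142 (Jamaica). The root groups did not overlap, the difference was 1.98 (SE 0.381, adjusted p = 0.0133), and the F1 root level lay inside the range of the leaves, 204 to 736. The other call was lower: the first probe set of the HSFA2D record gave 7338 and 6833 in F1 roots against 10584 and 12077 (C bao) and 12597 and 10094 (Jamaica) in roots, -0.67 (SE 0.149, adjusted p = 0.0268), a call lost under 6 of 21 alternatives (adjusted p up to 0.233). That gene record also carries the names of a dioxygenase (ARD2), and its second probe set gave 64.9 and 93.7 against 43.6 to 66.4 in parental roots, 0.47 (SE 0.319, adjusted p = 0.488). The 2 probe sets thus had differences of opposite sign. Which product each of them reads was not tested, so calls at the first probe set cannot be credited to a heat shock factor. HSFB2A, a class B factor also listed as HSF1, gave 294 and 266 in F1 roots at its first probe set, against 124 and 124 (C bao) and 148 and 150.3 (Jamaica) in roots. The groups did not overlap, and the test missed the threshold narrowly, 0.96 (SE 0.244, adjusted p = 0.0505).

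Beyond the calls, 15 of the 59 tested members had both F1 roots above all 4 parental roots, against 18.9% of all tested probe sets, and 7 had both below, against 11.1%. Over all 64 members without the filter the median difference was 0.36, beside 0.09 for all rice probe sets, and 50 members (78.1%) were positive beside 58.5% of all rice probe sets. After quantile normalization 42 members were positive and after median centring 38. The level of all probe sets depended on the scaling: its median was 0.09 with the deposited scaling, -0.02 after quantile normalization and -0.15 after median centring. Members above that median numbered 45, 44 and 45 of 64 under these scalings. Large chaperones above it numbered 9 of 11 under each, small heat shock proteins 18 of 26 under each, and factors 17 or 18 of 27. The 11 large chaperone probe sets belong to only 6 genes.

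**Figure D2:**
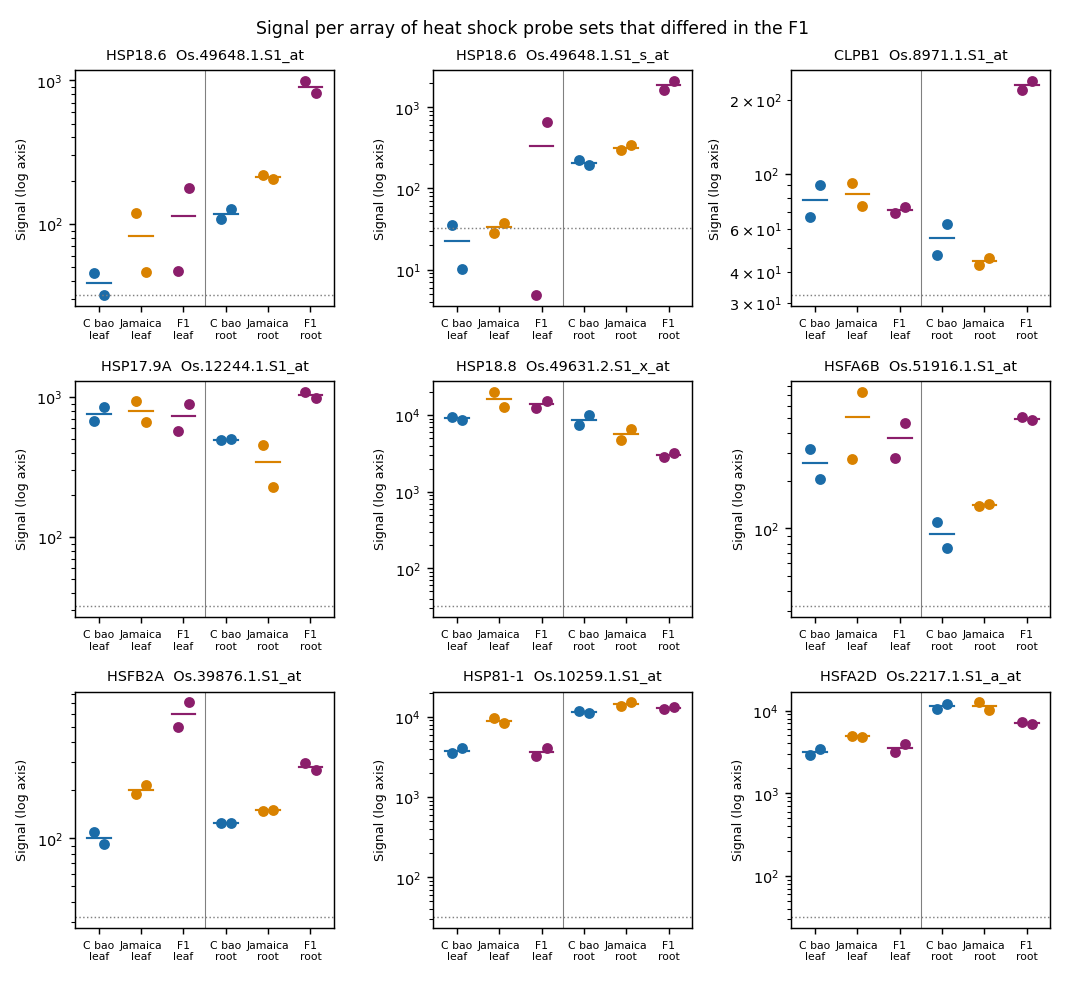
MAS5 signal (log axis) of 9 heat shock probe sets on each of the 12 arrays, by group. Points are arrays, the short lines are group means of 2 arrays, the dotted line is the filter level (32.2) where it lies in range, and the vertical line separates leaves from roots. F1 roots lie above all parental roots in both HSP18.6 panels and in those of CLPB1, HSP17.9A, HSFA6B and HSFB2A, and below them in those of HSP18.8 and HSFA2D. F1 leaves lie above parental leaves in the HSFB2A panel, and with C bao leaves in that of HSP81-1.

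Without F1 root replicate 1 no member was called by limma against mid-parent, and without replicate 2 only 1 was, and the share of all tested probe sets called went from 5.06% to 1.22% and 1.45%. Without both F1 leaf arrays, whose spread enters the common estimate, 13 members were called (11 higher and 2 lower), against 8.07% of all tested probe sets. All 7 calls were among them. The added ones were the S1_s_at probe set of HSP18.6, HSP16.9A (adjusted p = 0.0393), HSP16.9B, HSP26.2 (0.00157), HSFB2A (0.0332) and the HSP81-3 probe set ending S2_a_at (0.0295). The probe set of HSP16.9B had passed the filter only through C bao and F1 roots, so its call adds no support. In the same fit 4 probe sets were called beyond both parents (CLPB1, both bright ones of HSP18.6, and HSP26.2), against 1.77%.

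Another set of stress genes moved with these results. The 8 dehydration and abscisic acid genes (such as RAB21, LEA3 and Emp1, which encode dehydrins and other late embryogenesis abundant proteins) summed to 128652 and 141052 on the F1 root arrays, against 817 to 2838 on the 4 parental roots. None of the 8 was at or under the filter level in F1 roots. Their part in the heat shock result was not tested.

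In F1 leaves 2 of the 59 tested members differed from mid-parent, against 1.21% of all tested probe sets. The class B factor HSFB2A was higher (higher calls made up 0.982% of all tested) and the HSP90 gene HSP81-1 lower (lower calls made up 0.233%). An unadjusted p under 0.05 was reached by 8 of 59, against 12.4%. Against C bao alone 4 of 59 were called, all higher in F1 (1.15% of all tested). These include 2 probe sets of HSP18.0 that had passed the filter only through the Jamaica and F1 groups. Against Jamaica alone 5 of 59 were called (5.22%), of which HSFB2A was higher and HSP81-1, HSP17.4, HSP18.0 and HSP24.1 were lower. Against mid-parent no small heat shock protein was called by limma (3 of 22 probe sets had an unadjusted p under 0.05). Beyond both parents 0 of 59 were called by limma (2 at an unadjusted p under 0.05, both HSFB2A probe sets, against 2.75%), beside 0.00233% of all tested probe sets called. Without F1 leaf replicate 1 the count was 1, HSP18.6 at its S1_s_at probe set (3.81, adjusted p = 0.00826), against 0.507% of all tested probe sets; this rests on the single array left.

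HSFB2A gave 495 and 710.2 on the F1 leaf arrays at its first probe set. The parental leaves gave 109.8 and 91.5 (C bao) and 189 and 215 (Jamaica). Both F1 leaves lay above all other 10 arrays, and the difference was 1.94 (SE 0.244, adjusted p = 0.00394). The second probe set of the gene gave 176 and 225 in F1 leaves against 70.6 and 94.3 (C bao) and 73.7 and 102 (Jamaica) in leaves. It did not overlap with the parents either, though it was not called (1.10, SE 0.381, adjusted p = 0.253). The HSFB2A call held without either F1 leaf array (adjusted p = 0.0029 without replicate 1 and 0.0135 without replicate 2) and was lost when the leaf arrays were fitted alone (adjusted p = 0.0975). In Arabidopsis, HSFB2 proteins are known as repressors of heat-inducible genes.

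HSP81-1, a cytosolic HSP90, gave 3277 and 4044 in F1 leaves at its first probe set. It gave 3495 and 4035 in leaves of C bao and 9555 and 8399 in leaves of Jamaica. F1 leaves overlapped C bao leaves and lay below both Jamaica leaves, so that the call against mid-parent, -0.67 (SE 0.136, adjusted p = 0.0444), is a position at the C bao end of the parental range. The direct comparisons gave -0.04 (SE 0.157, adjusted p = 0.951) against C bao and -1.30 (SE 0.157, adjusted p = 0.00105) against Jamaica. The mid-parent call was lost under 16 of 20 alternatives, with an adjusted p of up to 0.358; among them was the fit without F1 leaf replicate 1 (0.0734). The second probe set of the gene gave 532 and 389 in F1 leaves, between 314 and 215 (C bao) and 599 and 772 (Jamaica), and was not called (0.10, SE 0.258, adjusted p = 0.91).

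The 17 genes of dividing cells (such as PCNA and the MCM genes of DNA replication) differed between the parental leaves and split the F1 leaf pair. Their mean log2 value was 8.74 and 9.07 in C bao leaves, 5.97 and 6.84 in Jamaica leaves, and 9.13 and 6.18 on F1 leaf replicates 1 and 2. Their part in the leaf calls was not tested. The dehydration genes summed to 1801 and 48064 on the F1 leaf pair, against 837 to 3037 in parental leaves.

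Across the classes, F1 leaves showed no common direction. Of all 64 members 34 were positive and 30 negative, with a median of 0.04 beside -0.04 for all rice probe sets, of which 46.6% were positive. Of the large chaperones 9 of 11 were negative, with a median of -0.25. This was 8 of 11 after quantile normalization and 9 of 11 after median centring. These 11 probe sets belong to only 6 genes. Of the factors 17 of 27 were positive. Both F1 leaves lay above all 4 parental leaves for 5 members, all of them factors (both HSFB2A probe sets, the second of HSFA2D, and 1 each of HSFB2B and HSFB2C), against 6.15% of all tested probe sets. Both lay below for 1 member, against 7.13%.

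**Figure D3:**
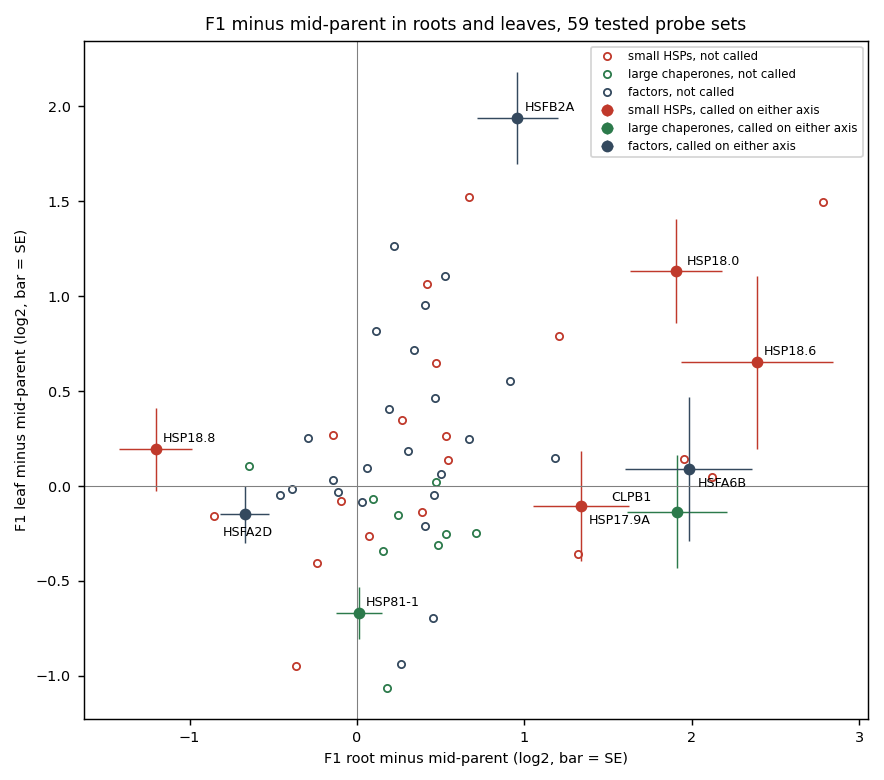
Difference of F1 from mid-parent in roots (x axis) against leaves (y axis), on the log2 scale, for the 59 tested heat shock probe sets. Filled points with bars (SE) were called in either tissue, open points in neither. CLPB1, HSFA6B and HSP17.9A lie far to the right near 0 on the leaf axis, and HSFB2A lies highest. The F1 arrays of each tissue are compared with the parents of that tissue, so the positions on the axes share no array. The bars and calls come from a common fit to all 12 arrays.

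Tested directly, the F1 effect in leaf minus that in root was called by limma for 0 of 59 members (14 at an unadjusted p under 0.05, against 13.8%), beside 1.11% of all tested probe sets called. The F1 effects in the tissues are therefore not shown to differ for any member on all 12 arrays. Without F1 leaf replicate 1, HSP81-3 (S2_a_at), HSP18.8 and HSP26.2 were called, and without replicate 2 HSP81-1 (the first) and both bright probe sets of HSP18.6, that is 3 of the tested members each time, against 4.56% and 3.26% of all tested probe sets, with none in common. The values were 1.91 in root and -0.14 in leaf for CLPB1, a difference of -2.05 (SE 0.423, adjusted p = 0.0509). For the first HSFB2A probe set they were 0.96 in root and 1.94 in leaf, a difference of 0.98 (SE 0.346, adjusted p = 0.238). Of the 11 large chaperones, 10 had a lower F1 effect in leaf than in root with the deposited scaling, 10 after quantile normalization and 9 after median centring. Their median was -0.68 beside -0.13 for all rice probe sets, of which 41.4% had a higher F1 effect in leaf than in root. The 11 probe sets belong to only 6 genes.

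Between the parents, 3 of 59 members differed in roots, against 4.7% of all tested probe sets, and 10 differed in leaves, against 11.9%. All 3 root calls were lower in C bao: HSP24.1 and both differing probe sets of HSP18.0. Of all 42974 tested probe sets, 993 were called lower and 1026 higher in C bao roots. Both of these HSP18.0 probe sets, which are also among the leaf calls, had passed the filter only through the Jamaica and F1 groups. In leaves 8 were lower in C bao (4 of small heat shock proteins, both of HSP81-1, 1 of HSFB1 and 1 of the HSFA2D record) and 2 were higher (HSFB4B and a probe set of HSP81-3), beside 4.39% of all tested probe sets called lower and 7.46% called higher. Counted by gene, 5 genes were lower and 1 higher in C bao leaves. Small heat shock proteins as a group had a median of -0.53 for C bao minus Jamaica in leaves, beside -0.02 for all rice probe sets. Of the 26 members 19 were negative, while 48.5% of all rice probe sets were positive.

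HSP18.0 was near the bottom of the scale in C bao at 2 of its 3 probe sets. At the first, C bao gave 6.4 and 8.4 in leaves and 7.7 and 13.1 in roots. Jamaica gave 1297 and 1044 in leaves and 517 and 425 in roots, and F1 gave 304 and 399 in leaves. The C bao arrays lay below the filter level in both tissues. The probe set had passed the filter only through the Jamaica and F1 groups, where it was high. No size is therefore given for its calls in leaf and root. At the second, the C bao arrays gave 0.9 and 42.1 in leaves and 5.9 and 21.4 in roots, Jamaica gave 617 and 482 in leaves and 485 and 514 in roots, and F1 gave 402 and 331 in leaves and 201 and 156 in roots. The C bao group means lay below the filter level there too. This probe set had passed the filter through the same groups as the first, so no size is given for its calls either. The third probe set did not show this: all 12 arrays gave 698 to 1269.6, and the parents differed by 0.05 (SE 0.198, adjusted p = 0.899) in leaf and -0.08 (SE 0.198, adjusted p = 0.907) in root. The probe sets of this gene thus disagree on a parental difference, and which of them follows the level of the transcript was not tested. F1 lay between the parents in leaves at both differing probe sets.

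HSP24.1, a small heat shock protein, gave 145 and 140.2 in C bao leaves and 1092 and 931 in Jamaica leaves. F1 leaves gave 374 and 357, between the parents and without overlap with either. In roots the values were 430.1 and 373 in C bao, 786 and 733 in Jamaica and 529.9 and 503 in F1, which again lay between the parents without overlap. The parental difference was -2.69 (SE 0.205, adjusted p = 1.73e-05) in leaf and -0.89 (SE 0.205, adjusted p = 0.0314) in root. The root call was lost under 7 of 21 alternatives (adjusted p up to 0.218). HSP17.4, a cytosolic class I protein, gave 134 and 48 in C bao leaves and 658 and 658 in Jamaica leaves, with 155 and 253 in F1, above C bao and below Jamaica. In roots the 6 arrays gave 87.4 to 181. The parents differed by -2.78 (SE 0.421, adjusted p = 0.00224) in leaf, and in root by 0.55 (SE 0.421, adjusted p = 0.605).

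For both genes the parental difference itself differed between the tissues, in a test added after the data had been seen. The leaf difference minus the root difference was -3.33 (SE 0.595, adjusted p = 0.0184) for HSP17.4 and -1.80 (SE 0.29, adjusted p = 0.0117) for HSP24.1. These were the 2 calls among 59 members, against 3.11% of all tested probe sets. Without both F1 leaf arrays 8 members were called, against 11.2%, and these 2 were among them.

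Of the large chaperones, HSP81-1 was lower in C bao leaves at both probe sets. The first probe set, with values given above, differed by -1.25 (SE 0.157, adjusted p = 0.000666), and the second by -1.34 (SE 0.297, adjusted p = 0.0171). In roots the first gave 11686 and 11138 in C bao, 13470.3 and 15161 in Jamaica and 12418 and 13331 in F1, and was not called (-0.32, SE 0.157, adjusted p = 0.348). HSP81-3, another cytosolic HSP90, gave 3771 and 4285 in C bao leaves against 2135 and 1959.6 in Jamaica leaves at its probe set ending S2_a_at, a difference of 0.97 (SE 0.212, adjusted p = 0.016). That call was lost under 5 of 21 alternatives. The 4 other probe sets of HSP81-3 were not called in leaves, with differences from -0.24 to 0.45. Genes of dividing cells also differed between the parental leaves, as given above, and their part in these differences was not tested.

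Of the factors, HSFB4B, whose Arabidopsis relative patterns the root stem cell niche, gave 474 and 371 in C bao leaves at its probe set ending S1_x_at. Jamaica leaves gave 69.1 and 122, and the F1 pair split between them, at 401 and 129.6. The parental leaves did not overlap, with a difference of 2.01 (SE 0.496, adjusted p = 0.0267), a call lost under 4 of 21 alternatives. The second HSFB4B probe set gave 174 and 203 (C bao) and 20.8 and 82.5 (Jamaica) in leaves and was not called (1.76, SE 0.678, adjusted p = 0.123). HSFB1, a class B factor, gave 1179 and 843 in C bao leaves, 1986 and 2111 in Jamaica leaves and 1498 and 1281 in F1, with a parental difference of -1.03 (SE 0.208, adjusted p = 0.011). The first probe set of the HSFA2D record gave 2891 and 3411 in C bao against 4903 and 4839 in Jamaica leaves, -0.63 (SE 0.172, adjusted p = 0.039), a call lost under 12 of 21 alternatives (adjusted p up to 0.231). Leaving out both F1 leaf arrays raised the count of members called between parental leaves to 16, against 19.4% of all tested probe sets, and the 10 calls were among them.

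**Figure D4:**
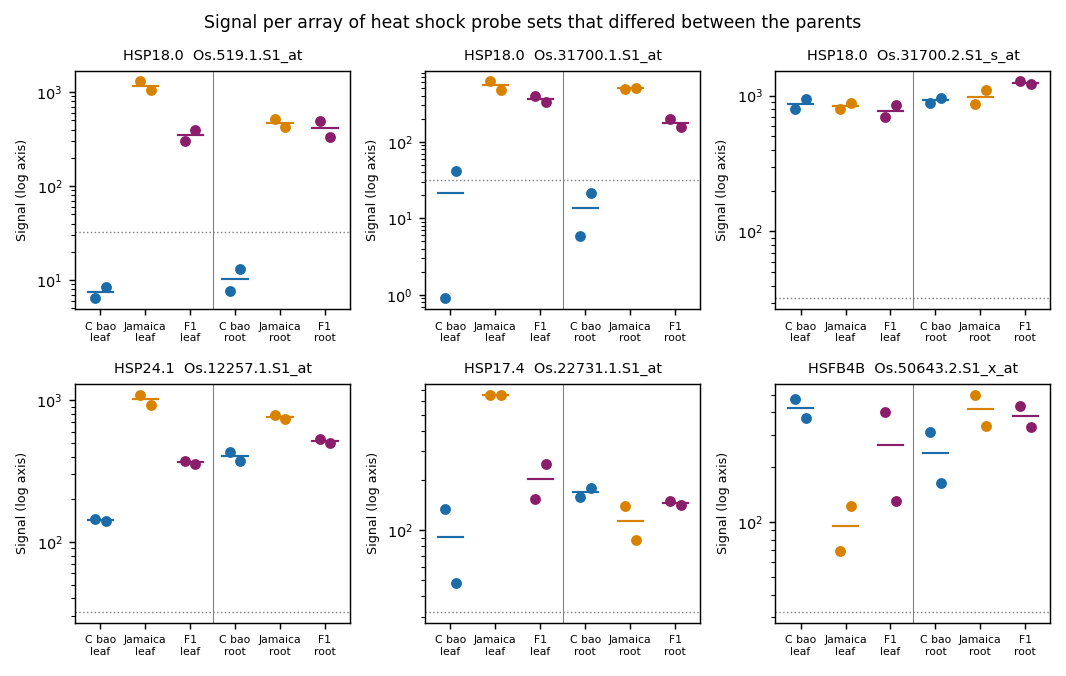
MAS5 signal (log axis) of 6 heat shock probe sets on the 12 arrays, by group, with group means of 2 arrays as short lines and the filter level (32.2) dotted. C bao lies at the bottom in the first 2 HSP18.0 panels and level with Jamaica in the third. HSP24.1 was called between the parents in both tissues, HSP17.4 and HSFB4B in leaves.

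Leaves and roots of the parents differed for 25 of 59 members, against 41.9% of all tested probe sets. Of these 11 were higher in leaves, against 20.9% of all tested, and 14 higher in roots, against 21%. By class, 4 small heat shock protein probe sets were higher in leaves and 7 in roots, 1 large chaperone probe set in leaves and 2 in roots, and 6 factor probe sets in leaves and 5 in roots. These counts include probe sets that had passed the filter only through the tissue where they were high. They were the second of HSP17.7 (through Jamaica leaves), and HSP23.2 and the HSFB2C probe set ending S1_x_at (through the root groups). The class C factors held the widest differences in both directions. By gene, 9 were higher in leaves and 11 in roots.

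HSFC1B, which in rice is linked to salt and osmotic stress tolerance, gave 1289 to 3077 on the 4 parental leaves. On the 4 parental roots it gave 50.3 to 234. F1 gave 1638 and 2686 in leaves and 216 and 171 in roots, so that all leaves lay above all roots, and the parental difference was 3.78 (SE 0.276, adjusted p = 1.1e-06). HSFC2A, the other class C factor that was called, ran the other way, with 119.7 to 324 on parental leaves and 1769 to 3309 on parental roots. F1 gave 121 and 355 in leaves and 1691 and 1493 in roots, and the difference was -3.24 (SE 0.32, adjusted p = 1.16e-05). HSFA3, which in Arabidopsis is switched on through DREB2A, gave 229.5 to 297 on parental leaves and 28 to 79.3 on parental roots, 2.12 (SE 0.326, adjusted p = 0.000337). HSFA6B was higher in leaves by 1.45 (SE 0.311, adjusted p = 0.00311), with F1 roots at the leaf level as described above.

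HSFB2C was called higher in roots at 2 of its 3 probe sets. At the first of these the parental roots gave 187 to 274 and the parental leaves 43.8 to 88.2, -1.52 (SE 0.375, adjusted p = 0.00726). At the other, ending S1_x_at, the roots gave 41.8 to 73.2 and the leaves 1.6 to 9.9, below the filter level. It had passed the filter only through the root groups, so its call adds no support for a tissue difference. The size at this dim probe set depended on the pseudocount, -3.13 with 1 and -0.75 with 64. The HSFA2D record had opposite signs at its 2 probe sets, -1.53 (SE 0.121, adjusted p = 2.16e-06) at the first and 1.07 (SE 0.26, adjusted p = 0.00663) at the second.

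Among small heat shock proteins, HSP23.2 gave 119 to 315 on parental roots and 14.8 to 31.5, below the filter level, on parental leaves. The probe set had passed the filter only through the root groups, where it was high, so no size is given for its call. HSP18.6 was higher in parental roots at both bright probe sets, with leaf minus root differences of -2.69 (SE 0.816, adjusted p = 0.0212) at the one ending S1_s_at and -1.30 (SE 0.37, adjusted p = 0.0153) at the one ending S1_at. The call at the S1_s_at probe set was lost under 6 of 20 alternatives. HSP17.9B was higher in leaves, at 2209 to 5271 against 1099 to 1701 in roots, 1.35 (SE 0.202, adjusted p = 0.000279). HSP17.9A was higher in leaves by 0.91 (SE 0.235, adjusted p = 0.00915). HSP17.7, a cytosolic class I protein, was higher in roots at its first probe set, where roots gave 927 to 1188 and leaves 194 to 566, -1.48 (SE 0.276, adjusted p = 0.00125). Its second probe set passed the filter only through Jamaica leaves, the group where it was high. The 8 parental arrays gave 1.6 to 49.5 there, so the leaf minus root difference of 1.12 (2.51 with a pseudocount of 1 and 0.47 with 64) gives no support for a tissue difference.

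Of the large chaperones, HSP81-1 was higher in roots, with leaf minus root differences of -1.14 (SE 0.111, adjusted p = 1.09e-05) at the first probe set and -1.10 (SE 0.21, adjusted p = 0.00149) at the second. CLPB2 was higher in leaves, with 996 to 1570.3 against 641 to 854 in roots, 0.77 (SE 0.196, adjusted p = 0.00852). HSP81-2 gave 14514 to 20127 on the 8 parental arrays without a call (-0.05, SE 0.108, adjusted p = 0.724).

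The F1 leaf pair split many members. Of the 20 members over 2-fold apart, 16 were higher on replicate 2. How all tested probe sets split by direction on this pair was not counted, so this lean is not shown to be particular to the members. The widest was HSP18.6 at its S1_s_at probe set, 5.04 higher on replicate 2 on the log2 scale, followed by HSP18.1 at its S1_at probe set, 3.26 higher. HSFA2B had a difference of -2.43 for replicate 2 minus replicate 1, and HSP26.2 one of -1.67. HSFB2A at its first probe set, HSP18.0 and HSP24.1 lay within 0.51 of each other on the pair. In leaves 36 of the 59 tested members separated the parents without overlap, against 24166 of all 42974 tested probe sets. Of these, 9 had both F1 leaves nearer C bao, 9 had both nearer Jamaica, 15 had replicate 1 nearer C bao and replicate 2 nearer Jamaica, and 3 the reverse. Over all such probe sets these shares were 35.5%, 17.6%, 37.4% and 9.39%.

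**Figure D5:**
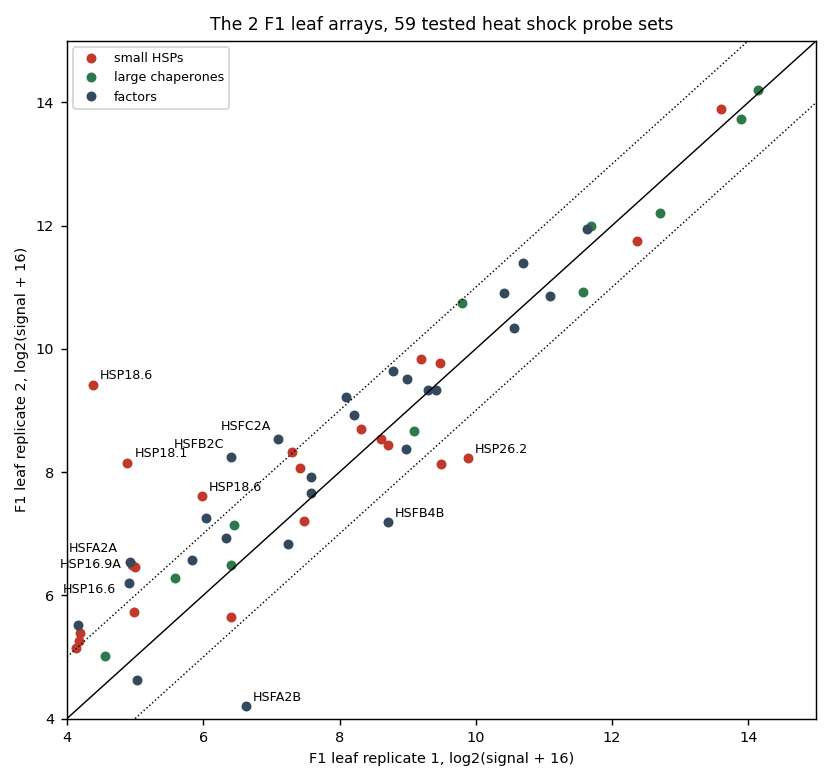
The 59 tested heat shock probe sets on F1 leaf replicate 1 (x axis) and replicate 2 (y axis), both as log2(signal + 16). The solid line marks equal values and the dotted lines a 2-fold difference of signal + 16. Names mark the probe sets furthest from the solid line. Those of HSP18.6, HSP18.1, HSFB2C, HSFA2A, HSP16.9A, HSP16.6 and HSFC2A were higher on replicate 2 and those of HSFA2B, HSP26.2 and HSFB4B higher on replicate 1.

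Other genes of the protein-folding network were counted from lists of J-proteins, HSP70 and HSP90 helpers, chaperones of the endoplasmic reticulum and genes known as targets or partners of heat shock factors, 28 genes of which 27 were tested. In F1 roots 1 was higher and 0 lower, beside 3.37% and 1.69% of all tested probe sets. This was APX8, a chloroplast ascorbate peroxidase, at 1.09 (SE 0.228, adjusted p = 0.0202). The median of the lists was 0.03 beside 0.12 for all tested probe sets. In F1 leaves 0 were higher and 1 was lower (0.982% and 0.233% of all tested), the protein disulfide isomerase PDIL2-2 at -0.71 (SE 0.144, adjusted p = 0.046). The median of the lists there was -0.31 beside -0.02 for all tested probe sets. None of the 5 J-proteins was called by limma in F1 in either tissue, nor were the HSP90 partners SGT1 and RAR1. Between parental roots 1 of 27 was called (4.7% of all tested), the J-protein DJA6, higher in C bao by 0.76 (SE 0.163, adjusted p = 0.0234).

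Between parental leaves 2 of the 27 genes were higher and 4 lower in C bao, beside 7.46% and 4.39% of all tested probe sets. PDIL1-5 was higher by 1.75 (SE 0.45, adjusted p = 0.0308) and the cytosolic ascorbate peroxidase APX1 by 1.55 (SE 0.226, adjusted p = 0.00174). The J-protein DJC27 was lower, at -1.65 (SE 0.448, adjusted p = 0.0388), as was BIP1, the HSP70 of the endoplasmic reticulum, at -1.12 (SE 0.294, adjusted p = 0.0335). Between leaves and roots of the parents 7 were higher in leaves and 13 higher in roots (20.9% and 21% of all tested), from APX8 at 6.66 to PDIL1-3 at -3.45.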

How the data were processed

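The deposited table held intensity values on a linear scale for 57381 probe sets, made with MAS5 per the submitters' processing notes, and scaled by the authors to a trimmed mean of 500.06 to 500.08 per array. Per the labels, RNA came from RNeasy columns and was labelled with the Affymetrix one-cycle kit. Detection calls and the software version are not stated there.

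The 123 control sets were left out and arrays rescaled to a trimmed mean (2% at each end) of 500. With log2(signal + 16), 42974 probe sets (75.05%) passed the filter (5.59 on the log2 scale in at least 1 of 6 group means). limma 3.58.1 in R 4.3.3 fitted 6 group means to 12 arrays and eBayes ran with a trend, leaving 6 residual degrees of freedom (prior: 4.581). The Benjamini-Hochberg threshold was 0.05, per comparison over all tested probe sets. Beyond both parents took the larger of the p-values against each parent where signs agreed. Figures used Python 3.11.15. The models were tested on simulated data.

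Of the probe sets 22436 had 1 gene in the probe annotation (all matched in RefSeq's gene table, assembly ASM3414082v1), 95 several and 34727 none listed. Members, lists and the naming rule were chosen with earlier results of these data known. The rule gave full values for members called in F1 comparisons, HSFB2A (HSF1), HSP81-1, up to 3 members per class and direction for parents and tissues, and up to 2 uncalled per class; other names were chosen after their values were seen. From the list of endoplasmic reticulum chaperones, 10 genes of unrelated proteins with like symbols were dropped, and the chaperonin list matched no gene. Same-numbered replicates did not deviate together (correlations from -0.168 to 0.078), so numbers were not used as pairs.

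Alternatives were quantile normalization, median centring, pseudocounts of 1 and 64, no filter or the 60th percentile, a replicate block, each tissue alone, leaving out both F1 leaf arrays and leaving out each array.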

Additional observations from a re-analysis of the deposited data

Results flagged for a closer look

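The parental difference (C bao minus Jamaica) differed between leaves and roots for HSP17.4 and HSP24.1, by a direct test added after the data had been seen. They were 2 of 59 tested members, against 3.11% of all tested probe sets. For HSP17.4 it was -2.78 in leaf and 0.55 in root, that is -3.33 between the tissues on the log2 scale (SE 0.595, adjusted p = 0.0184 from limma). The root difference alone was not called, so an opposite direction in roots is not shown. For HSP24.1 it was -2.69 in leaf and -0.89 in root, that is -1.80 (SE 0.29, adjusted p = 0.0117), with C bao lower in both tissues. In leaves all C bao arrays lay below all Jamaica arrays for both genes. For HSP17.4 the call was lost in 5 of 20 alternatives (adjusted p up to 0.0856), namely without C bao leaf replicate 2, either C bao root array, Jamaica leaf replicate 1 or Jamaica root replicate 2. For HSP24.1 it was lost in 3 of 20 (up to 0.0582), namely without C bao leaf replicate 1, C bao root replicate 1 or Jamaica root replicate 2.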

How the results depend on the processing

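Of 39 results for single named members, 19 were called under every alternative run and 0 reversed in sign. The other calls were each lost under some alternative, also where no such loss is given above. Against mid-parent in F1 roots the count of 7 became 11 with a pseudocount of 64 (5.73% of all tested probe sets called), and 13 with root arrays alone (14.2%) or without both F1 leaf arrays (8.07%), from 5.06%. In F1 leaves the count of 2 became 1 with quantile normalization, median centring, no filter or the replicate block, and 0 by limma with leaf arrays alone (0.101%, from 1.21%). Beyond both parents in roots the count of 1 became 0 with quantile normalization, a pseudocount of 1, no filter or the replicate block, 2 with a pseudocount of 64 (1.51%), 4 without both F1 leaf arrays (1.77%) and 7 with root arrays alone (4.05%), from 1.08%. Median centring also gave 1, but it was a probe set of the HSFA2D record, lower in F1, in place of CLPB1. For the leaf minus root F1 effect the count of 0 became 1 with quantile normalization, median centring or the 60th percentile filter, and 2 with a pseudocount of 64 (1.74%, from 1.11%). Between parental leaves the count of 10 became 5 with leaf arrays alone (3.22%) and 16 without both F1 leaf arrays (19.4%), from 11.9%. For the parental difference between tissues the count of 2 became 3 or 4 with quantile normalization or median centring, 5 with a pseudocount of 64 (3.77%) or the 60th percentile, and 8 without both F1 leaf arrays (11.2%, from 3.11%). The share of all probe sets called moved with the setting, so these counts say little about the members alone. The causes were not tested.

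Leaving out 1 array at a time gave 0 to 13 calls in F1 roots and 1 to 3 in F1 leaves against mid-parent, 0 to 4 in F1 roots and 0 to 1 in F1 leaves beyond both parents, and 0 to 3 for the leaf minus root F1 effect. It gave 2 to 3 calls between parental roots, 5 to 15 between parental leaves, 21 to 27 between tissues of the parents and 0 to 8 for the parental difference between tissues. A group left with 1 array was assumed to vary like the others. The share of all tested probe sets called also moved with the array left out, so these ranges say little about the members alone. The F1 root count against mid-parent fell without either F1 root array or C bao root replicate 2, and rose without either F1 leaf array. The share of all tested probe sets called moved the same way each time. Without C bao leaf replicate 2 or Jamaica leaf replicate 1 the parental leaf count fell, and the share of all tested probe sets called fell with it. Parental root calls without the replicate number as a block numbered 3, and 3 with the replicate block. Median centring turned the split of all tested probe sets in F1 roots to 1031 higher and 2114 lower, from 1449 and 725. With 2 arrays a group and no detection calls, levels near the filter level (a signal of 32.2) carry little information.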

Other observations

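The probe sets of HSP81-3 did not read alike in F1 leaves. F1 leaves gave 7.5 and 16.5 at the probe set ending S1_at, below the 25.8 to 57.5 of the 4 parental leaves, whereas the S2_s_at probe set gave 18124 and 18827 against 17761 to 32849. HSFA2A, a class A factor whose Arabidopsis relative amplifies the heat response, had 3 probe sets, and none was called by limma in any comparison (1 at an unadjusted p under 0.05, in F1 roots). Its 12 arrays gave 3.8 to 76.6, 3.7 to 59.5 and 4 to 57.5 at these probe sets. HSFA1, of the class A1 factors known as master regulators of the heat response in tomato, gave 1706 to 2179.8 on all 12 arrays and was not called by limma in any comparison, with no unadjusted p under 0.05. HSP26.7, a plastid small heat shock protein, gave 2.3 to 58.4.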
